A study of Mus musculus with 12 samples.

Results

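Antisense long non-coding genes are transcribed from the strand opposite to another gene. The members described here were the genes of the deposited count table that GENCODE types as antisense or antisense RNA and that reached at least 3 CPM (counts scaled to the library total) in at least 3 of the 12 libraries. The CPM and RPKM values given from here on are scaled by TMM factors as well. The table held 2631 antisense genes, 1760 had a read in any library, and 235 passed the minimum, out of 14731 genes of all types that did so. The annotation label was checked against the positions in the table. Of the 235 antisense genes, 201 overlapped a protein-coding gene on the other strand and 34 overlapped none, among them Tsix, whose opposite-strand gene Xist is itself non-coding. A coding gene that also passed the minimum, called the partner, was found for 174 of them, and where there were several, the one with the longest overlap was taken.

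The study compared mouse embryonic stem cells (ESCs) with the epiblast-like cells (EpiLCs) made from them. ESCs were grown in medium with 15% serum, LIF and 2i, the inhibitors PD0325901 and CHIR99021, which hold them in the naive state, and EpiLCs were collected about 56 hours after LIF and 2i were withdrawn. Both cell types received 500 uM 4-thiouridine (4sU), a uridine analogue, for 30 minutes, so the unselected RNA of each group also came from labelled cells. Captured 4sU RNA gave the nascent libraries, and RNA depleted of ribosomal RNA gave the total libraries, with 3 libraries in each of the 4 groups. The labelled RNA of a sample was divided to give both kinds of library. The study describes its replicates as biological, the labels do not name the cultures they came from, and the p-values measure the spread between these libraries.

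In pairs called head to head here the overlap holds the starts of both genes, at any distance, and in tail to tail pairs it holds their ends. An antisense gene may also lie wholly inside its partner or span it. Many are made by promoters that fire on both strands, and such transcripts are often short-lived because the nuclear RNA exosome degrades them and the Integrator complex ends them early. A few are well known regulators in early embryonic cells, such as Tsix, which opposes Xist on the X chromosome, and Kcnq1ot1, which silences its imprinted neighbours.

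The antisense genes that passed the minimum, which nascent libraries alone can meet, were mostly low in total RNA and far more visible in nascent RNA. They took 0.797 ± 0.0452% of reads (SD, n = 3) in ESC nascent libraries and 0.0899 ± 0.00715% in ESC total libraries. In EpiLCs the shares were 0.784 ± 0.0217% and 0.118 ± 0.00115%. A single gene, Gm15564, gave much of the nascent share, which was 0.555 ± 0.0133% in ESCs and 0.500 ± 0.0246% in EpiLCs without it. Per length of exon, the median antisense gene stood at 4.91 RPKM (CPM per kilobase of exon) in ESC nascent RNA and 0.673 RPKM in ESC total RNA, against 8.65 and 10.1 RPKM for the median protein-coding gene. Libraries held 3097693 to 5385644 reads in nascent RNA and 9300845 to 21975684 in total RNA, and 41 of the 235 had at least 20 reads in each library, so single values below carry a large counting error. In total RNA 8 of 8 naive markers were called lower, 5 of 6 formative and primed markers higher, and 1 of 4 general pluripotency markers higher and 1 lower. Of the markers of other cells that passed the minimum, 2 of 4 for primitive endoderm, 2 of 3 for primitive streak, 1 of 1 for trophectoderm, 1 of 2 for neural cells and 2 of 3 for fibroblasts were called higher in EpiLCs, and 1 for primitive endoderm lower. Both ESC replicate 3 libraries stood apart from the other ESC libraries (chi-square per degree of freedom 28.6 and 29.7 for ESC total replicate 3 against replicates 1 and 2, and 2.65 between those), so results that rest on them are also given without them.

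The promoters of 87 antisense genes and 118 of the 173 partners could be matched to a RefSeq table (build GRCm38.p6; same symbol and strand, start within 500 bases). Each window ran from 250 bases before the start to 50 after it. The windows of the antisense genes held a median of 25 CG dinucleotides and 63.3% G and C, against 7 and 52.7% over all 32851 windows of the table and 21 and 61.0% for the partners. The windows of the table were not filtered by expression, whereas the antisense genes and partners were. Searched on both strands, the GC box letters GGGCGG were found in 60.9% of antisense windows, 61.9% of partner windows and 35.7% of all windows, and TATAAA in 5.75%, 8.47% and 13.6%. A match is a description of the letters and not evidence of a bound factor. By call in total RNA, the 13 called lower in EpiLCs held 3 to 30 CG dinucleotides with a median of 5, the 64 not called a median of 27.5 and the 10 called higher a median of 23. Over protein-coding genes matched in the same way, the medians were 16 for the 1056 called lower, 23 for the 6774 not called and 21 for the 1283 called higher. By call in nascent RNA, the 20 antisense genes called lower held 3 to 43 with a median of 10.5. The 56 not called had a median of 28 and the 11 called higher 21. At most 12 CG dinucleotides were held by 12 of the 13 called lower in total RNA and by 11 of the 20 called lower in nascent RNA. No test was made of this pattern, which was seen after the values were known. The 6 windows shown here are of the falling genes 2310043M15Rik, Gm13580 and 6330410L21Rik (each with 5 CG dinucleotides), of the rising genes Pcsk2os1 (17) and Gm10584 (18), and of Tug1 (37), which did not pass the test in either direction. They are written 5′ to 3′ along the strand of the antisense gene, with CG dinucleotides in capitals.
2310043M15Rik (chr16:93794852-93795151, minus strand): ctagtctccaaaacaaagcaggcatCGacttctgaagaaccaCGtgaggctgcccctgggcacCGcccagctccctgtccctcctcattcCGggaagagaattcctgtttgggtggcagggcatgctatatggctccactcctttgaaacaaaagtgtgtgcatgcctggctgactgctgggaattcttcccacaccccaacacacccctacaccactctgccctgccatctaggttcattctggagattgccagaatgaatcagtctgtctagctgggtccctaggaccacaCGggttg
Gm13580 (chr2:60411275-60411574, plus strand): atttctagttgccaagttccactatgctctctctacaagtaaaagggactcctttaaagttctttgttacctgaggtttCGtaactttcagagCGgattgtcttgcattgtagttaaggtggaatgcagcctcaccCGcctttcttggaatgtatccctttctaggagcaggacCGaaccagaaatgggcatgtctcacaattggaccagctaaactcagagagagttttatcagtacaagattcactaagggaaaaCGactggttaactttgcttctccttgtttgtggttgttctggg
6330410L21Rik (chr3:129753508-129753807, plus strand): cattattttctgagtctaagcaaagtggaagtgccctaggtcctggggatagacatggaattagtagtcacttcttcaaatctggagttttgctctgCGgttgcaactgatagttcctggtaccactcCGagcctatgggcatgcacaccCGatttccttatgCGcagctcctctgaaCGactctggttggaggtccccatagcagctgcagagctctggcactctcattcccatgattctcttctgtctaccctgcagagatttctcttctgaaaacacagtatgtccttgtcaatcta
Pcsk2os1 (chr2:143547788-143548087, minus strand): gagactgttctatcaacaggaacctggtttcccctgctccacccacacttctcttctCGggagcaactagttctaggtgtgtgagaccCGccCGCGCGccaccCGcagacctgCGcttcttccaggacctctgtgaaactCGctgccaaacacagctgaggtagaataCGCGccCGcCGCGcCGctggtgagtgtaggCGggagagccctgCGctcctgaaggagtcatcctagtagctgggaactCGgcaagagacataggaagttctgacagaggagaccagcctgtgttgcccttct
Gm10584 (chr7:132315414-132315713, plus strand): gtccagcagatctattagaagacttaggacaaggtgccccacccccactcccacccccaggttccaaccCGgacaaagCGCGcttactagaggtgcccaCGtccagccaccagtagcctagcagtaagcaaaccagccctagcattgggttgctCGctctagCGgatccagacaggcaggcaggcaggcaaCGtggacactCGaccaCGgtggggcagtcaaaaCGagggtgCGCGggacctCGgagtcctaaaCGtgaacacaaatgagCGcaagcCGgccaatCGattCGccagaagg
Tug1 (chr11:3648765-3649064, minus strand): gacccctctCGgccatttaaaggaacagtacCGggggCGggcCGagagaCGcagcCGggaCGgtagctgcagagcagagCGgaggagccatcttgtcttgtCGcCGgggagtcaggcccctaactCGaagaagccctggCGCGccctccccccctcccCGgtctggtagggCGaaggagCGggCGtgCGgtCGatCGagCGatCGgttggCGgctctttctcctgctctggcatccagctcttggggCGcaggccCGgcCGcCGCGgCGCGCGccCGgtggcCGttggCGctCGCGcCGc

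**Figure D1:**
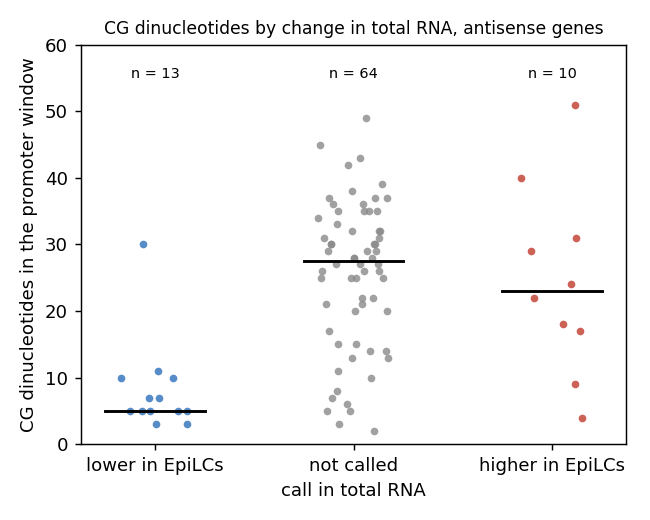
CG dinucleotides in the 300-base promoter window (vertical axis, count) of the 87 antisense genes with a matched window, by their call in total RNA (horizontal axis). Points are genes and bars are medians, 5 for the 13 genes called lower in EpiLCs, 27.5 for the 64 not called and 23 for the 10 called higher. The 20 genes called lower in nascent RNA, not drawn as a group, had a median of 10.5.

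The first comparison asked which antisense genes changed in total RNA between ESCs and EpiLCs. A gene was called changed at an adjusted p under 0.05 (limma-voom, Benjamini-Hochberg over all 14731 genes) with a log2 fold change beyond 1 in size. In total RNA 42 of the 235 antisense genes (17.9%) were higher in EpiLCs, where 16.3% of all genes tested were, and 37 (15.7%) were lower, where 11.2% of all genes were. The median log2 fold change was 0.40 for the antisense genes and 0.02 for all genes. It was 0.23 for long intergenic non-coding genes (lincRNA) and 0.68 for genes that await experimental evidence (TEC). In nascent RNA 24 (10.2%) were higher, against 11.9% of all genes, and 53 (22.6%) were lower, against 13.5%. The median was -0.16, against -0.09 over all genes, -0.22 over lincRNA genes and -0.19 over TEC genes. A gene could reach the minimum through the nascent libraries of a single cell type, so a change can be measured from the group through which it entered. In these bulk samples fewer cells of a type and less RNA per cell cannot be told apart.

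Of the antisense genes 51 were called in both assays, 28 in total RNA only and 26 in nascent RNA only. Those called higher in both numbered 15 (10.8% of all genes tested were), 36 were lower in both (9.16% of all genes), and none was called in opposite directions by limma-voom, edgeR or DESeq2 (at an unadjusted p under 0.05, 3 were by limma-voom, 1 by edgeR and 0 by DESeq2), where 0.0272% of all genes were by limma-voom. Higher in total RNA alone were 27 genes, where 5.51% of all genes were, and 17 were lower in nascent RNA alone, where 4.35% of all genes were.

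**Figure D2:**
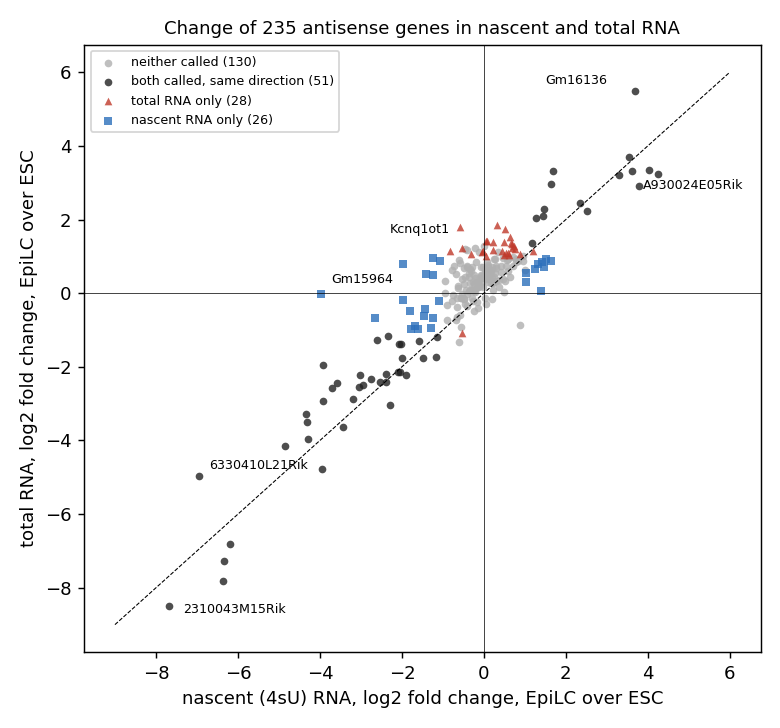
Log2 fold change, EpiLC over ESC, of the 235 antisense genes in nascent RNA (horizontal axis) and total RNA (vertical axis); each point is a gene and the dashed line marks equal change. The 51 genes called in both assays lie in the same quadrant for both, and 28 were called in total RNA only and 26 in nascent RNA only.

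The largest falls were of genes read in ESCs and at or near 0 reads in EpiLCs. 2310043M15Rik (ENSMUSG00000097768.1, chr16:93792150-93794888, minus strand, 1553 exonic bases) lies inside Dop1b, which encodes a protein of membrane trafficking. It had 528, 558 and 210 reads in the ESC total libraries and 0, 0 and 1 in the EpiLC total libraries. Nascent reads were 345, 482 and 132 in ESCs and 1, 2 and 0 in EpiLCs. The groups were far apart in both assays, with ESC replicate 3 the lowest of the ESC libraries. Summed over libraries the level was 761 times higher in ESC total RNA (95% exact counting interval 136 to 30094; adjusted p = 6.12e-06, limma-voom) and 274 times higher in nascent RNA (93.4 to 1329; adjusted p = 3.25e-05). Such intervals cover counting error only. Dop1b itself fell by 1.64 on the log2 scale in nascent RNA (SE 0.19, adjusted p = 6.64e-06) and had a log2 fold change of -0.89 in total RNA, short of the call.

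Gm13580 (ENSMUSG00000087283.1, chr2:60411525-60412579, plus strand, 566 exonic bases) had no coding partner that passed the minimum. Its total reads were 190, 223 and 123 in ESCs and 0 in all 3 EpiLC libraries, at least 105-fold lower in EpiLCs when 3 counts over the group are taken as the floor (adjusted p = 2.26e-09, limma-voom). 1700042O10Rik, inside Ddc, the gene of DOPA decarboxylase, had 82, 116 and 71 total reads in ESCs and 26, 63 and 44 nascent reads, and 0 reads in each of the 6 EpiLC libraries. That was at least 52.7-fold lower in total RNA (adjusted p = 1.95e-07) and at least 37.9-fold lower in nascent RNA (adjusted p = 1.69e-06), by limma-voom. Ddc fell with it, from 61.2, 66.1 and 83.1 CPM in ESC total RNA to 2.79, 3.13 and 2.58 CPM in EpiLCs.

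Kank4os, inside Kank4, which encodes a protein that links adhesions to the cytoskeleton, went from 6.26, 6.29 and 8.16 CPM in ESC total RNA to 0.669, 0.663 and 0.596 CPM in EpiLCs. The groups did not overlap, and the log2 fold change was -3.28 (SE 0.44, adjusted p = 1.35e-05, limma-voom). Kank4 changed by -3.84 (SE 0.35) and the difference between the 2 genes, 0.53 (SE 0.39), did not pass the test of the pair (adjusted p = 0.246). In nascent RNA the largest falls also took in 6330410L21Rik, which starts head to head with Egf, the gene of epidermal growth factor. Its nascent reads were 77, 90 and 49 in ESCs and 0 in all 3 EpiLC libraries, at least 61.6-fold lower (adjusted p = 3.03e-08, limma-voom). Egf had 15, 13 and 10 nascent reads in ESCs and 14, 18 and 8 in EpiLCs, with a log2 fold change of 0.25 (SE 0.38, adjusted p = 0.608). The pair thus changed unequally, by -7.19 on the log2 scale (SE 0.61, adjusted p = 4.50e-08).

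Among the rises, A930024E05Rik (ENSMUSG00000056735.5, chr5:122989354-122998345, plus strand, 1896 exonic bases) starts 469 bases from the start of Kdm2b, a histone demethylase gene, and on the other strand. Its nascent RNA stood at 5.93, 6.26 and 3.80 CPM in ESCs and 70.0, 70.1 and 61.7 CPM in EpiLCs. In total RNA it went from 2.26, 2.01 and 1.28 CPM to 19.9, 16.6 and 21.3 CPM. All EpiLC libraries were above all ESC libraries, with a log2 fold change of 3.62 in nascent RNA (SE 0.23, adjusted p = 2.01e-08, limma-voom) and 3.31 in total RNA (SE 0.22, adjusted p = 9.88e-09). Kdm2b had a log2 fold change of 0.67 in both assays, below the call, and the antisense gene exceeded it by 2.96 in nascent RNA (SE 0.22, adjusted p = 1.05e-08).

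Pcsk2os1 starts head to head with Pcsk2, which encodes a convertase that cuts prohormones. Its total reads were 5, 10 and 2 in ESCs and 29, 37 and 34 in EpiLCs, a log2 fold change of 3.24 (SE 0.38, adjusted p = 3.84e-06, limma-voom). Pcsk2 rose by 3.78 (SE 0.47), and the difference between the pair did not pass the test in total RNA (-0.54, SE 0.60, adjusted p = 0.453). Gm16136, head to head with Grhl2, a gene of an epithelial transcription factor, starts 123 bases from its partner's start. It had 0, 1 and 0 total reads in ESCs and 20, 19 and 23 in EpiLCs, 106 times higher in EpiLCs (95% exact counting interval 18.3 to 4235; adjusted p = 1.37e-07, limma-voom). Grhl2 went from 13, 8.31 and 10.3 CPM to 64.4, 61.2 and 71.8 CPM in total RNA, so both rose.

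**Figure D3:**
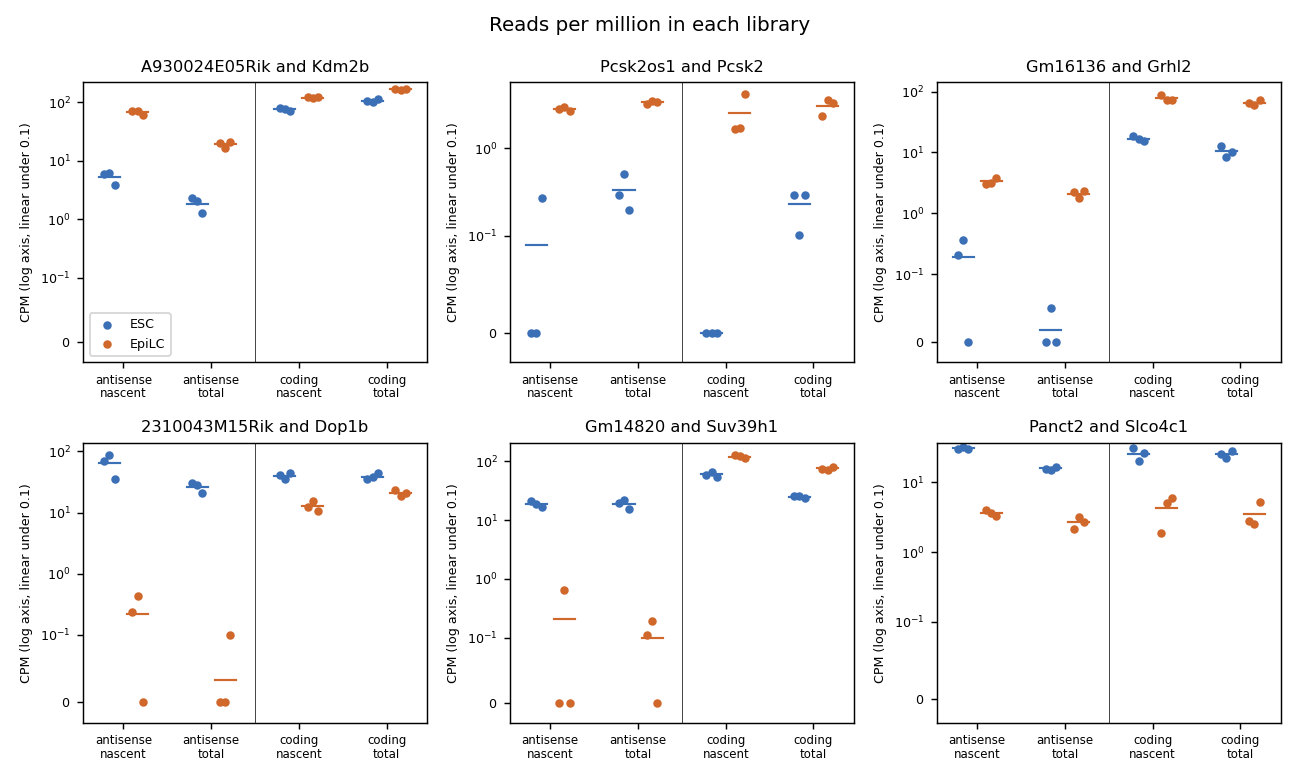
CPM (vertical axis, log scale, linear under 0.1) of 6 antisense genes and their coding partners in each nascent and total library. Points are the 3 libraries of a group and bars their mean. 2310043M15Rik and Gm14820 drop to near 0 in EpiLCs while their partners do not, and Pcsk2os1, Gm16136 and Panct2 move the same way as theirs.

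Gm16233 (ENSMUSG00000085773.3, chr3:144947561-144954878, plus strand), without a partner, had 57, 46 and 4 nascent reads in ESCs and 279, 310 and 212 in EpiLCs. Its log2 fold change was 3.54 in nascent RNA (SE 0.50, adjusted p = 3.71e-05, limma-voom) and 3.71 in total RNA (SE 0.49, adjusted p = 1.20e-05), and ESC replicate 3 was the low library in both assays. Without that library of the assay it was 2.73 in nascent and 3.2 in total RNA. Gm10584 lies inside the span that the table gives Fgfr2, a fibroblast growth factor receptor gene. Their starts lie 807686 bases apart and they share 0 exonic bases. It had 1, 1 and 1 nascent reads in ESCs and 25, 22 and 17 in EpiLCs, 24.9 times higher (95% exact counting interval 8.15 to 124; adjusted p = 4.35e-06, limma-voom), and Fgfr2 rose by 2.60 on the log2 scale (SE 0.34). E530011L22Rik, tail to tail with Nktr, and Gm28959, without a partner, rose in nascent RNA by 2.35 (SE 0.30, adjusted p = 1.66e-05) and 3.79 (SE 0.71, adjusted p = 0.000452). The value of Gm28959 was 3.01 without ESC nascent replicate 1 and 4.34 without ESC nascent replicate 3. E530011L22Rik shares 2182 exonic bases with Nktr and had 3.02% of its reads. Whether reads of Nktr were assigned to the wrong strand was not tested.

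The second comparison set the total level of each antisense transcript against its nascent level. The log2 ratio of total over nascent RNA has no absolute zero, since scaling removes any difference in the amount of RNA between assays. In ESCs 212 of the 235 antisense genes (90.2%) were lower in total than in nascent RNA, where 26.8% of all genes were, and 1 was higher, where 23.7% of all genes were. In EpiLCs 200 (85.1%) were lower and 2 higher, against 23.3% and 24.2% of all genes. The minimum of 3 CPM could be met by nascent libraries alone, so genes could enter on the assay in which they are high. With no filter, 1109 of the 1760 antisense genes with a read were lower in ESCs and 910 in EpiLCs. The total libraries were deeper than the nascent ones, and limma-voom adds a small constant to each count. This lowers the ratio of a gene with few reads, so the counts with no filter cannot show what the minimum did. The share of all genes was not counted with no filter. The median level of the 235 was -2.87 in ESCs and -2.33 in EpiLCs. Over the coding partners it was -0.04 and 0.06, over 12312 protein-coding genes 0.30 and 0.37, and over 311 long intergenic non-coding genes (lincRNA) -2.48 and -2.0. The 821 genes of the annotation class TEC, which await experimental evidence, were lower still, at -3.91 and -3.01. Scaling by library totals alone moved the median of all genes in ESCs from 0.03 to -0.20 and that of the antisense genes to -3.10.

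**Figure D4:**
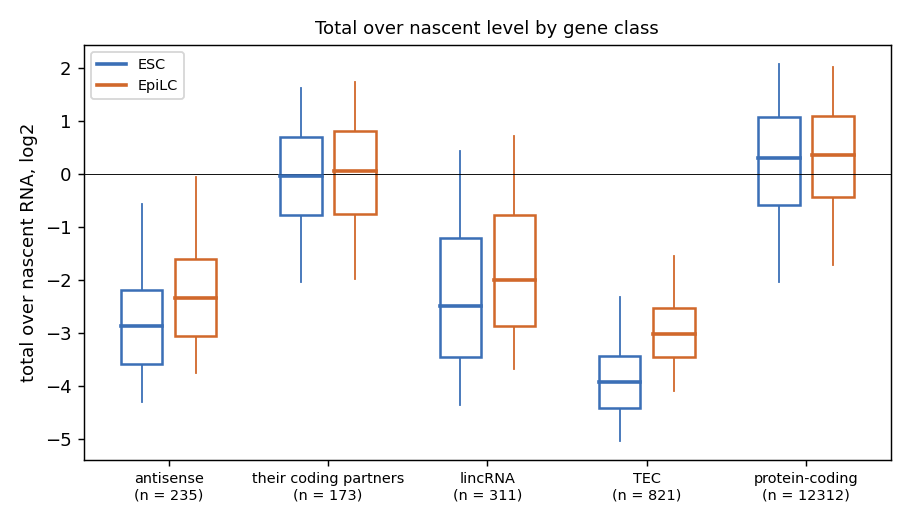
Total over nascent RNA (vertical axis, log2) in ESCs and EpiLCs by gene class, with boxes from the lower to the upper quartile, bars at the median and lines from the 5th to the 95th percentile of genes. Antisense genes sit at medians of -2.87 and -2.33, below their coding partners at -0.04 and 0.06.

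By the structure of the gene, the 62 antisense genes with exons in 1 block had a median of -3.24 in ESCs, the 70 with 2 blocks -3.00, and the 103 with 3 or more -2.62. Across 174 pairs, which share libraries and reads at overlapping exons, Spearman's rho of antisense and partner level was 0.0592 in ESCs and 0.000752 in EpiLCs. By arrangement the median antisense level in ESCs was -2.85 for head to head, -2.90 for inside, -2.88 for tail to tail and -2.08 for the 8 genes that span their partner.

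At the low end, Gm15564 (ENSMUSG00000086324.8, chr16:35966753-35983230, minus strand, 820 exonic bases), tail to tail with Parp9, had 9764, 11943 and 10001 reads in the ESC nascent libraries and 46, 37 and 28 in the ESC total libraries. Its level was -9.91 in ESCs (SE 0.22, adjusted p = 1.95e-13, limma-voom) and -9.85 in EpiLCs (SE 0.25, adjusted p = 1.06e-12), and 1700019L13Rik was next at -5.32 in ESCs. That gene had 0 reads over the ESC total libraries, so its value rests on the floor of the counts. Parp9 had 15.7, 14 and 12.7 CPM in the same nascent libraries. The study states depletion of ribosomal RNA for total RNA and does not state it for captured 4sU RNA. Whether this took part in the level of Gm15564 was not tested. Among genes with at least 20 reads in each ESC library, the lowest after Gm15564 were 4732440D04Rik (-4.25), which starts head to head with the autophagy gene Rb1cc1, Tsix (-4.25), Gm44777 (-3.99) and Lrrc75aos2 (-3.81). Tsix overlaps another gene on its own strand, where reads could be split. Gm15564 and these 4 genes were called lower in total than in nascent RNA in both cell types.

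With the same minimum of reads, the highest levels in ESCs were those of Srrm4os (0.66, SE 0.30), Sp3os (0.28, SE 0.22), Gm14820 (0.02, SE 0.19), 1110002L01Rik (-0.19, SE 0.14) and Gm13580 (-0.36, SE 0.15), none of them called in either direction. The sign of Gm14820 depended on the scaling and on single libraries, and 1110002L01Rik overlaps a gene on its own strand. Srrm4os, tail to tail with the neural splicing factor gene Srrm4, had 201, 257 and 241 total reads and 49, 44 and 37 nascent reads in ESCs. Srrm4 itself stood at -3.37, with 12, 16 and 16 total reads. The gene called higher in total RNA in both cell types was Gm11837, with 32, 35 and 21 total and 3, 4 and 0 nascent reads in ESCs. It was named after its values were seen.

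Per length of exon, the most abundant antisense genes in total RNA were Rab26os (33.8 RPKM, mean over both cell types), Tug1 (25.9), Snhg9 (20), Gm43803 (16.7) and 4930566F21Rik (12.9). Tug1, a conserved long non-coding RNA, stood at 179, 171 and 155 CPM in ESC total RNA and 177, 181 and 190 CPM in EpiLCs, and the difference did not pass the test (log2 fold change 0.12, SE 0.14, adjusted p = 0.461, limma-voom). Rab26os, Tug1 and Snhg9 overlap another gene on their own strand, where the authors' counting could split reads. Snhg9, a small nucleolar RNA host gene, has 183 exonic bases and 22 to 57 reads in the total libraries. Of these 5, 4930566F21Rik alone was called changed: it fell from 35.9, 36.1 and 24.4 CPM to 7.03, 6.73 and 8.15 CPM in total RNA (log2 fold change -2.14, SE 0.20, adjusted p = 3.71e-07). It starts 438 bases from the start of Gpn1, a GTPase gene, and Gpn1 had a log2 fold change of -0.17 (SE 0.08). The unequal change of this pair, -1.96 (SE 0.16), passed the test (adjusted p = 5.76e-09).

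Change in the total over nascent level between cell types gave the fewest calls. By the interaction term 5 of the 235 (2.13%) were higher in EpiLCs, where 1.24% of all genes were, and none was lower, where 0.305% of all genes were. At an unadjusted p under 0.05 limma-voom gave 1 lower and 51 higher, edgeR and DESeq2 gave 0 lower calls as well and 0 lower at that p, and the median over the antisense genes was 0.45 against 0.11 over all genes. It was 0.47 over lincRNA genes, 0.9 over TEC genes, 0.06 over protein-coding genes and 0.01 over the partners. Leaving out both ESC replicate 3 libraries raised the count of higher calls from 5 to 21, and leaving out ESC total replicate 3 alone raised it to 14. It fell to 1 without EpiLC nascent replicate 2, to 2 without ESC total replicate 2, EpiLC nascent replicate 1 or EpiLC total replicate 2, and to 3 without ESC total replicate 1, EpiLC nascent replicate 3, EpiLC total replicate 1 or EpiLC total replicate 3. With a block for each culture it was 12. The share of all genes was not counted under these settings or at the unadjusted p, so these counts say nothing particular to antisense genes. Without both ESC replicate 3 libraries the median was 0.45 over the antisense genes and 0.12 over all genes. The genes of the nuclear exosome, its adaptors and Integrator were looked at beside this. Of 36 on the list 31 passed the minimum, and none was called in total RNA, nascent RNA or stability by limma-voom, edgeR or DESeq2. By limma-voom 16.3% of all genes were called higher and 11.2% lower in total RNA, and 11.9% and 13.5% in nascent RNA. In stability these shares were 1.24% and 0.305%, so few calls could fall among 31 genes. At an unadjusted p under 0.05 there were 13, 13 and 8 of them by limma-voom, 12, 14 and 8 by edgeR, and 12, 14 and 12 by DESeq2. The largest size of a limma-voom log2 fold change in total RNA was 0.95. It was a fall of Ints4 (-0.95, adjusted p = 3.71e-07, limma-voom), followed by Exosc5 (-0.92, adjusted p = 1.4e-07), both short of the fold threshold only. The largest rise was that of Exosc7 (0.37, adjusted p = 0.0191). Whether these genes took part in the change of level was not tested.

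Gm26542, tail to tail with Maml1, a Notch coactivator gene, had the call that held with each library left out. Its log2 total over nascent level was -2.56, -3.30 and -3.15 in the ESC cultures and -0.16, -0.23 and -0.20 in the EpiLC cultures, where a culture is the nascent and total library of the same number. The difference was 2.78 (SE 0.51, adjusted p = 0.0114, limma-voom). Nascent reads fell from 17, 23 and 14 to 4, 5 and 2 while total reads were 10, 8 and 4 and then 8, 10 and 6. Gm15964, which spans Dnajc28, went from -2.94, -2.79 and -1.54 to 1.73, 1.34 and 1.23 (difference 3.97, SE 0.84, adjusted p = 0.0186). Its call was lost without EpiLC nascent replicate 1 (4.21), 2 (4.13) or 3 (3.58) or EpiLC total replicate 1 (3.62) or 2 (3.84). In nascent RNA both genes were called lower, with log2 fold changes of -1.98 (SE 0.37) for Gm26542 and -3.98 (SE 0.65) for Gm15964, and neither was called in total RNA. Both genes reached the minimum of 3 CPM in the ESC nascent libraries alone. Their nascent falls and their rises in level are thus measured from the group through which they entered.

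Kcnq1ot1 (ENSMUSG00000101609.1, chr7:143212155-143296549, minus strand, 84395 exonic bases) is the antisense gene with the most total reads. Its nascent RNA was 1579, 1199 and 1424 CPM in ESCs and 1279, 1422 and 1445 CPM in EpiLCs, and the ranges overlapped. In total RNA it went from 142, 141 and 262 CPM to 379, 376 and 387 CPM, with ESC replicate 3 the highest of the ESC libraries and still below each EpiLC library. The log2 fold change was 1.15 in total RNA (SE 0.18, adjusted p = 5.26e-05, limma-voom) and -0.01 in nascent RNA (SE 0.17, adjusted p = 0.963), and the interaction was 1.16 (SE 0.25, adjusted p = 0.019). Without both ESC replicate 3 libraries the interaction was 1.42. The call in total RNA was lost without ESC total replicate 1 (0.99) or 2 (1.0), where the change fell to the threshold. The interaction call was lost without ESC total replicate 1 (0.94) or 2 (1.01), EpiLC nascent replicate 1 (1.10) or 2 (1.18), or EpiLC total replicate 2 (1.17) or 3 (1.15). Kcnq1, its opposite-strand gene, had 0 to 10 reads per library and was below the minimum. Cdkn1c, an imprinted cell cycle inhibitor gene of the same domain, rose by 2.67 in total RNA (SE 0.19, adjusted p = 1.61e-08, limma-voom). Phlda2, another neighbour, had a log2 fold change of 0.95 in total RNA (SE 0.34, adjusted p = 0.0225, limma-voom), short of the call.

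The other named stability calls were Atad3aos (2.21, SE 0.55, adjusted p = 0.0385, limma-voom), tail to tail with Vwa1, and Gm48529 (2.36, SE 0.49, adjusted p = 0.0167), inside Tagln. Atad3aos kept its call without ESC nascent replicate 1, 2 or 3 or ESC total replicate 3, and lost it without each of the other 8 libraries (2.09 to 2.38). Gm48529 lost it without ESC total replicate 2 (2.31) or EpiLC nascent replicate 2 (2.12). In total RNA Gm48529 stood at 0.811, 0.805 and 0.983 CPM in ESCs and 4.57, 2.94 and 2.09 CPM in EpiLCs. Tagln, a smooth muscle and fibroblast gene, rose from 3.07, 3.42 and 3.44 CPM to 329, 276 and 310 CPM. The summed level of the 6 fibroblast markers moved with it, from 3.47 to 4.23 CPM in ESC total libraries and from 14 to 18.2 CPM in EpiLC total libraries, with Col1a2 and Dcn the 2 of 3 kept genes called higher. Its part in the values of Gm48529 was not tested.

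Among the known imprinted or X-linked antisense genes, Tsix (ENSMUSG00000085715.2, chrX:103431517-103484957, plus strand) fell in nascent RNA from 1467, 1649 and 1154 reads to 478, 499 and 385 reads, or from a mean of 303 to 111 CPM (log2 fold change -1.45, SE 0.09, adjusted p = 1.51e-08, limma-voom). In total RNA it was 14.8, 15.2 and 18.8 CPM in ESCs and 9.71, 9.48 and 12 CPM in EpiLCs, a log2 fold change of -0.61 that stayed short of the call. Xist had 35, 34 and 74 nascent reads in ESCs and 14, 17 and 13 in EpiLCs (log2 fold change -1.29, SE 0.45, adjusted p = 0.0273), and 5, 3 and 4 total reads in ESCs and 7, 11 and 19 in EpiLCs (2.15, SE 0.73, adjusted p = 0.0181). Nespas, antisense at the imprinted Gnas locus, rose in total RNA from 20, 20.5 and 26.8 CPM to 47.5, 47.8 and 49.7 CPM (log2 fold change 1.14, SE 0.12, adjusted p = 8.63e-07). Gnas rose by 1.05 (SE 0.09), and the pair did not differ beyond the test in total RNA (0.09, SE 0.13, adjusted p = 0.577). Igf2os stood at 0.464, 0.906 and 0.590 CPM in ESC total RNA and 1.45, 1.23 and 1.69 CPM in EpiLCs (1.14, SE 0.46, adjusted p = 0.0428), and Igf2, the growth factor gene on the other strand, rose by 2.63 (SE 0.28). The call of Igf2os was lost without ESC total replicate 1 (0.88) or 3 (1.12), EpiLC nascent replicate 2 (1.14) or 3 (1.14), or EpiLC total replicate 1 (1.14), 2 (1.26) or 3 (1.03).

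The third question was whether an antisense gene and its coding partner changed together. Both were called in 24 of the 174 pairs in total RNA, 12 lower together, 9 higher together and 3 in opposite directions. Over all 1175 opposite-strand pairs of genes tested, which include these, 2.38% were lower together, 3.06% higher together and 1.19% opposite. Pairs of 2 coding genes (766) are among the 1175, and 465 of them lie tail to tail and 232 head to head. Of the 174 pairs 81 lie head to head and 41 tail to tail, so the shares over all pairs come from another mix of arrangements. In nascent RNA 21 of the 174 pairs were lower together, 5 higher together and 4 opposite, where 3.4%, 1.79% and 1.45% of all pairs were. In 33 pairs the antisense gene was called in total RNA and the partner was not, and in 15 the reverse, and 28.9% of all pairs had 1 gene called and the other not. Across the 174 pairs Spearman's rho of the changes was 0.404 in total and 0.363 in nascent RNA (Pearson's r 0.476 and 0.482). Without ESC total replicate 3, rho was 0.341 in total RNA. The points share libraries and, for 150 pairs, exonic bases, and no p is given.

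The relation differed in size by arrangement. For the 81 head to head pairs rho was 0.652 in total and 0.629 in nascent RNA. Over the 61 of these with starts within 1000 bases it was 0.628 and 0.68. It was 0.206 and 0.232 for the 44 antisense genes inside their partner and 0.175 and 0.00383 for the 41 tail to tail pairs. Taking replicate 1, 2 or 3 of each cell type alone, rho for head to head pairs was 0.589, 0.527 and 0.671 in total RNA, and for tail to tail pairs 0.149, 0.0848 and 0.282. Head to head pairs of 2 coding genes gave a rho of 0.300 in total RNA (232 pairs), and tail to tail coding pairs 0.117 (465 pairs). The difference between arrangements was not tested. Whether reads assigned to the wrong strand took part in these values was not tested. In total RNA the head to head rho was 0.663 over the 39 pairs whose antisense gene had at least 5% of its partner's reads. It was 0.791 over the 13 pairs whose exons shared under 50 bases. In nascent RNA these values were 0.589 and 0.813. Without both ESC replicate 3 libraries the head to head rho was 0.617 in total RNA. None of the head to head pairs was called in opposite directions in either assay by limma-voom, edgeR or DESeq2 (at an unadjusted p under 0.05, 4 were in total RNA and 2 in nascent RNA by limma-voom, 2 and 2 by edgeR, and 3 and 1 by DESeq2). Of all 1175 opposite-strand pairs, 1.19% in total RNA and 1.45% in nascent RNA were called so by limma-voom.

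**Figure D5:**
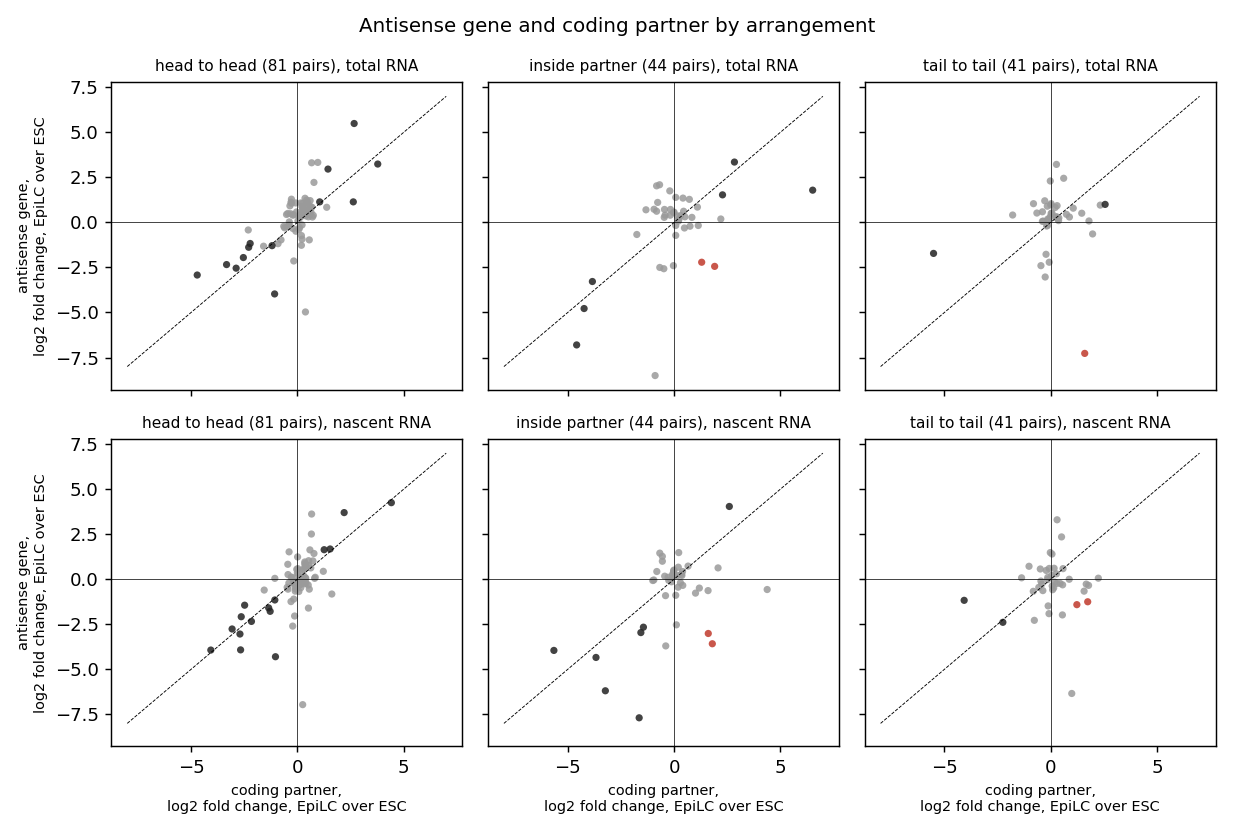
Log2 fold change, EpiLC over ESC, of the coding partner (horizontal axis) and the antisense gene (vertical axis) for head to head, inside and tail to tail pairs, in total RNA (top) and nascent RNA (bottom). Black points are pairs called in the same direction, red points pairs called in opposite directions, grey points the rest, and the dashed line marks equal change; Spearman's rho in total RNA was 0.652, 0.206 and 0.175.

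The 8 head to head pairs that were lower together in total RNA were Panct2 with Slco4c1, Tspan32os with Tspan32, 6330403L08Rik with Pdgfa, Apol7d with Fn1, Dgkeos with Dgke, Gm37912 with D1Pas1, Gm20478 with Gm8909 and Gm45470 with Adrb3. Of these 16 genes 4 lost their call in total RNA with some library left out. Gm37912 lost it without ESC total replicate 2 (-1.39) or EpiLC total replicate 1 (-1.3), 2 (-1.41) or 3 (-1.45), Gm20478 without ESC total replicate 1 (-1.07) or EpiLC total replicate 2 (-1.34) or 3 (-0.82), and Dgke (-0.9) and Adrb3 (-0.96) without ESC total replicate 3. The 5 that were higher together were Pcsk2os1, Gm16136, Nespas and Igf2os with the partners given above, and 0610038B21Rik with Arhgap10. The starts of Nespas and Igf2os lay 11116 and 7123 bases from those of their partners. Those described next were chosen after their values were seen. Panct2, a long non-coding gene known from pluripotent cells, went from 15.5, 15.3 and 16.7 CPM to 2.12, 3.22 and 2.68 CPM in total RNA, and Slco4c1, an organic anion transporter gene, from 25.6, 22.3 and 27.9 CPM to 2.79, 2.56 and 5.17 CPM. The difference between their changes, 0.34 (SE 0.33), did not pass the test (adjusted p = 0.387). Pdgfa, a growth factor gene, fell from 151, 144 and 104 CPM to 13.1, 13 and 13.3 CPM, and 6330403L08Rik from 8.17, 6.39 and 5.90 CPM to 1.34, 1.14 and 1.49 CPM. That pair fell unequally, by 1.02 less for the antisense gene (SE 0.30, adjusted p = 0.00605). Dgkeos had 14, 21 and 4 total reads in ESCs and 0 in each EpiLC library, at least 7.64-fold lower, beside a log2 fold change of -1.07 for Dgke (SE 0.14, adjusted p = 1.00e-05, limma-voom). It had 1.42% of the reads of Dgke, and Apol7d had 0.384% of the reads of Fn1, the fibronectin gene.

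The 3 pairs called in opposite directions in total RNA were Gm14820 with Suv39h1, Gm26738 with St7, and 2410021H03Rik with Epb41l3. Gm14820 (ENSMUSG00000087193.7, chrX:8049248-8072959, plus strand) lies tail to tail with Suv39h1, which encodes a histone H3 lysine methyltransferase of heterochromatin. It had 332, 444 and 158 total reads in ESCs and 1, 2 and 0 in EpiLCs, 183 times higher in ESCs (95% exact counting interval 62.4 to 888; adjusted p = 2.00e-07, limma-voom). Over the same libraries Suv39h1 rose from 26.2, 25.4 and 23.8 CPM to 75.3, 72.7 and 81.4 CPM, a log2 fold change of 1.6 (SE 0.09, adjusted p = 1.64e-09). In nascent RNA Suv39h1 changed by 0.99 (SE 0.10), just under the call, and Gm14820 went from 102, 106 and 61 reads to 0, 3 and 0. The antisense gene was lower and Suv39h1 higher in each EpiLC total library than in each ESC total library, and the pair difference was -8.86 in total RNA (SE 0.57, adjusted p = 2.19e-10).

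Gm26738 lies inside St7 and had 9, 11 and 12 total reads in ESCs and 0, 2 and 1 in EpiLCs, 6.27 times higher in ESCs (95% exact counting interval 1.96 to 32; adjusted p = 0.0032, limma-voom). St7 rose by 1.91 (SE 0.18, adjusted p = 3.10e-07). 2410021H03Rik lies inside Epb41l3, a membrane skeleton gene, and went from 2.38, 1.26 and 1.18 CPM to 0.335, 0.379 and 0.199 CPM (log2 fold change -2.21, SE 0.58, adjusted p = 0.00417), while Epb41l3 rose from 22.8, 21.8 and 21.4 CPM to 55.3, 52.3 and 55.4 CPM. Both pairs were also called in opposite directions in nascent RNA.

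Unequal change within a pair was tested over all overlapping opposite-strand pairs of genes. In total RNA 55 of the 174 pairs changed unequally, where 30.3% of all 1175 opposite-strand pairs tested did. In nascent RNA 54 did, where 29.0% of all pairs did. By arrangement, 17 of 81 head to head, 18 of 44 inside and 18 of 41 tail to tail pairs changed unequally in total RNA.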

How the data were processed

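Per the labels, the authors trimmed reads with cutadapt 1.14, aligned them to mm10 with STAR 2.5.3a and counted them per gene with featureCounts 1.5.3 on the reverse strand (setting 2) over GENCODE M14. The deposited values are raw read counts per gene. Positions, exonic lengths and strands came from the same table, and gene types from GENCODE M21. Genes at 3 CPM of the library total in 3 libraries were kept, and printed CPM and RPKM values are TMM-scaled. One limma-voom fit over the 12 libraries and 4 groups (limma 3.58.1, edgeR 4.0.16 for TMM factors, R 4.3.3) gave the change in total RNA, in nascent RNA and in their difference (stability), and the total over nascent level in each cell type. Adjusted p-values are Benjamini-Hochberg over all kept genes. Pair differences were fitted with limma over all kept opposite-strand pairs. The fit was tested on simulated counts. The edgeR quasi-likelihood test and DESeq2 1.42.0 were alternatives, beside other scalings, filters, blocks and left-out libraries. Per the labels, labelled RNA of a sample was divided between the nascent and the total library, and no shared origin is stated for ESC and EpiLC libraries of one number. Libraries of one number were checked for shared deviations: the correlation was 0.163 to 0.408 between nascent and total ESC libraries, 0.0234 to 0.0747 in EpiLCs, and -0.0775 to -0.00903 between ESCs and EpiLCs. Named genes were the 5 largest called rises and falls per contrast without overlap between cell types and with a mean of at least 3 CPM in the higher group, the 5 highest and lowest levels among genes with at least 20 reads in each ESC library, the 5 most abundant per length, known antisense genes, pairs called in opposite directions, and partners. The members and gene lists were chosen with earlier results of these data known.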

Additional observations from a re-analysis of the deposited data

Results flagged for a closer look

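For 5 antisense genes the change between cell types differed between total and nascent RNA by the interaction test of limma-voom. The total over nascent level was higher in EpiLCs by 3.97 on the log2 scale for Gm15964, 2.78 for Gm26542, 2.36 for Gm48529, 2.21 for Atad3aos and 1.16 for Kcnq1ot1. Gm15964 and Gm26542 had reached the minimum in the ESC nascent libraries alone.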

How the results depend on the processing

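Calls in total RNA (42 higher, 37 lower) ran from 31 to 43 and 33 to 37 with each library left out in turn, and those in nascent RNA (24 and 53) from 18 to 27 and 50 to 57. With no filter on low counts there were 174, 103, 101 and 147 over all antisense genes then tested, and 32, 36, 25 and 51 over the 235, and with genes at 10 CPM 15, 18, 7 and 20, as fewer genes were then tested. Nascent rises were 46 by adjusted p alone and 12 among genes with at least 5% of their partner's reads or no partner. Lower total over nascent levels numbered 1109 in ESCs and 910 in EpiLCs over the 1760 antisense genes tested with no filter, and 88 in each at 10 CPM. With no filter the greater depth of the total libraries lowers the ratio of genes with few reads. Stability rises (5) ran from 1 to 14 with a library left out, and were 21 without both ESC replicate 3 libraries. They were 10 over all antisense genes with no filter, 1 at 10 CPM, 2 by DESeq2 and 3 with the reads of at least 5%. The share of all genes was not counted under these settings, and the cause was not tested. The nascent and total libraries of a culture come from divided RNA, and a block for each culture gave 12 stability rises; numbers shared between ESCs and EpiLCs have no stated origin, and a replicate block over all groups gave 5. Head to head rho became 0.791 in total and 0.813 in nascent RNA where exons shared under 50 bases (13 pairs, chosen after seeing the data). It was 0.617 in total RNA without both ESC replicate 3 libraries, and 0.589 in nascent RNA with the reads of at least 5%. The level of Gm14820 in ESCs (0.02, not called) was -0.04 with median-of-ratios factors, -0.20 with library totals, -0.14 with TMM within each assay and -0.05 by DESeq2, and -0.11 to 0.13 with a library left out. DESeq2 gave no adjusted p for 3 of 37 named values, and 41 of 235 antisense genes had 20 reads in each library.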
